A study of Mus musculus with 12 samples.

Results

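The platelet-derived growth factor (PDGF) family of the mouse was followed through early tooth development by its 4 ligand genes (Pdgfa, Pdgfb, Pdgfc, Pdgfd) and its 2 receptor genes (Pdgfra, Pdgfrb). These 6 members were taken by gene symbol from the 34347 genes of the deposited table, and all 6 passed the filter on low counts in every comparison. Bulk RNA-seq libraries had been made from wild-type C57BL/6 embryos in 4 groups of 3 libraries each, namely the dental epithelium and the dental mesenchyme at E13.5 and the same tissues at E11.5. By the study's methods, dispase was used to separate the tissues, which came from tooth germs at E13.5 and from mandibles at E11.5 and covered molar as well as incisor regions, with 10 embryos in total. Stage and starting piece changed together, and their effects cannot be told apart. The labels number the libraries as biological replicates but also speak of pooled RNA, so the p-values measure the spread between these libraries.

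PDGF ligands are secreted as dimers and signal through the receptor tyrosine kinases PDGFRα and PDGFRβ, which then recruit PI3-kinase, PLCγ, Src-family kinases and the Ras pathway. PDGF-A signals through PDGFRα, PDGF-B through both receptors, PDGF-C mainly through PDGFRα and PDGF-D mainly through PDGFRβ. In many embryonic organs an epithelium supplies PDGF-A to a mesenchyme that carries PDGFRα, and the cranial neural crest mesenchyme of the jaw needs Pdgfra. PDGF-B from endothelium draws mural cells that carry PDGFRβ to the vessel wall.

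The libraries held 70134554 to 79349382 estimated counts. In each group, 1 library has no number in the bracketed name of its label, and that library stood apart from the other 2. The median chi-square between libraries of a group, per gene, was 1.06 to 3.37 in the 4 pairs of numbered libraries and 5.69 to 21.7 in the 8 pairs with the unnumbered one, against 0.455 for sampling noise alone. It was computed on the estimated counts divided by 3, over genes whose divided counts summed to more than 100 in the pair. The unnumbered library of E13.5 epithelium is replicate 3, and it stood between the tissues. Its median mesenchyme marker was at 81.7% of the E13.5 mesenchyme mean, against 28.1% and 18.8% in replicates 1 and 2. In E11.5 epithelium that share was 58.9% to 77.7%, and Vim, a mesenchyme marker, was not lower in E11.5 epithelium than in E11.5 mesenchyme (log2 fold change 0.23, edgeR adjusted p = 0.624). Epithelial markers separated the tissues at both stages, with 14 of 15 higher in epithelium at E13.5 and 15 of 15 at E11.5. Of all genes, 1.62% passed as higher at E13.5 and 4.75% at E11.5. Results that use the E13.5 epithelium are therefore given with and without replicate 3, and also over the 8 numbered libraries alone, 2 a group. Both restrictions were chosen after the data had been seen. Both leave out libraries that stood apart, so their p-values measure the smaller spread of the libraries that remain.

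Pdgfa was the ligand that separated the tissues most. It encodes PDGF-A and lies on chromosome 5 (mm10, 138976014 to 138997370, minus strand, gene ENSMUSG00000025856). Its level, as FPKM (fragments scaled by transcript length and library size), was 38.5, 45.9 and 15.2 in replicates 1, 2 and 3 of E13.5 epithelium, against 5.84, 6.72 and 7.80 in E13.5 mesenchyme. In E11.5 epithelium it was 18.7, 19.6 and 14.5 FPKM, against 2.87, 3.75 and 3.80 FPKM in E11.5 mesenchyme. All epithelium libraries were above all mesenchyme libraries, also across stages, and only the 2 epithelium groups overlapped. Pdgfa overlaps the antisense gene 6330403L08Rik over 2315 bases. That gene reached at most 6.83 FPKM in a library. Whether the counting used strand is not given in the sources used here, so reads in the shared bases cannot be assigned.

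Pdgfc was the other abundant ligand, and its profile over tissues had the same direction but a smaller span. It encodes PDGF-C, whose CUB domain must be cut off before the dimer can bind its receptor, and lies on chromosome 3 (81036416 to 81214040, plus strand, gene ENSMUSG00000028019). Its level was 25.2, 31.2 and 16.4 FPKM in E13.5 epithelium, against 11.4, 10.04 and 9.46 FPKM in E13.5 mesenchyme. At E11.5 it was 21.9, 23.2 and 31.6 FPKM in epithelium and 17.0, 13.2 and 13.1 FPKM in mesenchyme. Within each stage all epithelium libraries were the higher ones. Across stages the order was E11.5 epithelium, E13.5 epithelium, E11.5 mesenchyme and E13.5 mesenchyme, and of the neighbours in that order only E11.5 mesenchyme and E13.5 mesenchyme did not overlap.

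Pdgfb and Pdgfd were the minor ligands in these tissues. Pdgfb, which encodes PDGF-B (chromosome 15, 79995874 to 80014977, minus strand, gene ENSMUSG00000000489), measured 2.06, 1.58 and 2.90 FPKM in E13.5 epithelium, against 3.38, 3.59 and 4.001 FPKM in E13.5 mesenchyme. At E11.5 it measured 1.93, 2.02 and 1.40 FPKM in epithelium and 2.19, 2.63 and 2.72 FPKM in mesenchyme. Pdgfb was thus lowest in the tissue where Pdgfa and Pdgfc were highest, although the E13.5 epithelium overlapped both E11.5 groups. Pdgfd, which encodes PDGF-D, again with a CUB domain that has to be removed (chromosome 9, 6168584 to 6378845, plus strand, gene ENSMUSG00000032006), measured 2.17, 1.20 and 1.35 FPKM in E13.5 epithelium, against 1.55, 1.85 and 1.66 FPKM in E13.5 mesenchyme. At E11.5 it measured 0.841, 0.992 and 1.13 FPKM in epithelium and 0.561, 0.451 and 0.609 FPKM in mesenchyme. The E13.5 groups overlapped each other, and both lay above both E11.5 groups. Pdgfd rested on the fewest counts of the family, 124 to 581 estimated counts per library.

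The receptors were the mirror image in direction. Pdgfra, which encodes PDGFRα (chromosome 5, 75152292 to 75198215, plus strand, gene ENSMUSG00000029231), measured 15.4, 8.01 and 41.2 FPKM in E13.5 epithelium, against 45.4, 45.3 and 42.8 FPKM in E13.5 mesenchyme. At E11.5 it measured 19.8, 19.2 and 22.7 FPKM in epithelium and 23.3, 28.5 and 28.6 FPKM in mesenchyme. E13.5 mesenchyme had the highest level, clear of the E11.5 mesenchyme, and E13.5 epithelium spanned a range wider than that of the other 3 groups, with replicate 3 close to mesenchyme. Pdgfrb, which encodes PDGFRβ (chromosome 18, 61045150 to 61085061, plus strand, gene ENSMUSG00000024620), followed the same pattern with 7.77, 4.61 and 26.1 FPKM in E13.5 epithelium, against 31.8, 33.2 and 32.4 FPKM in E13.5 mesenchyme. At E11.5 it measured 18.6, 19.1 and 17.8 FPKM in epithelium, against 23.6, 26.7 and 28.9 FPKM in mesenchyme. The tissues did not overlap at either stage, and E11.5 epithelium lay within the wide range of E13.5 epithelium. In bulk samples, fewer receptor-bearing cells and less receptor RNA per cell cannot be told apart.

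**Figure D1:**
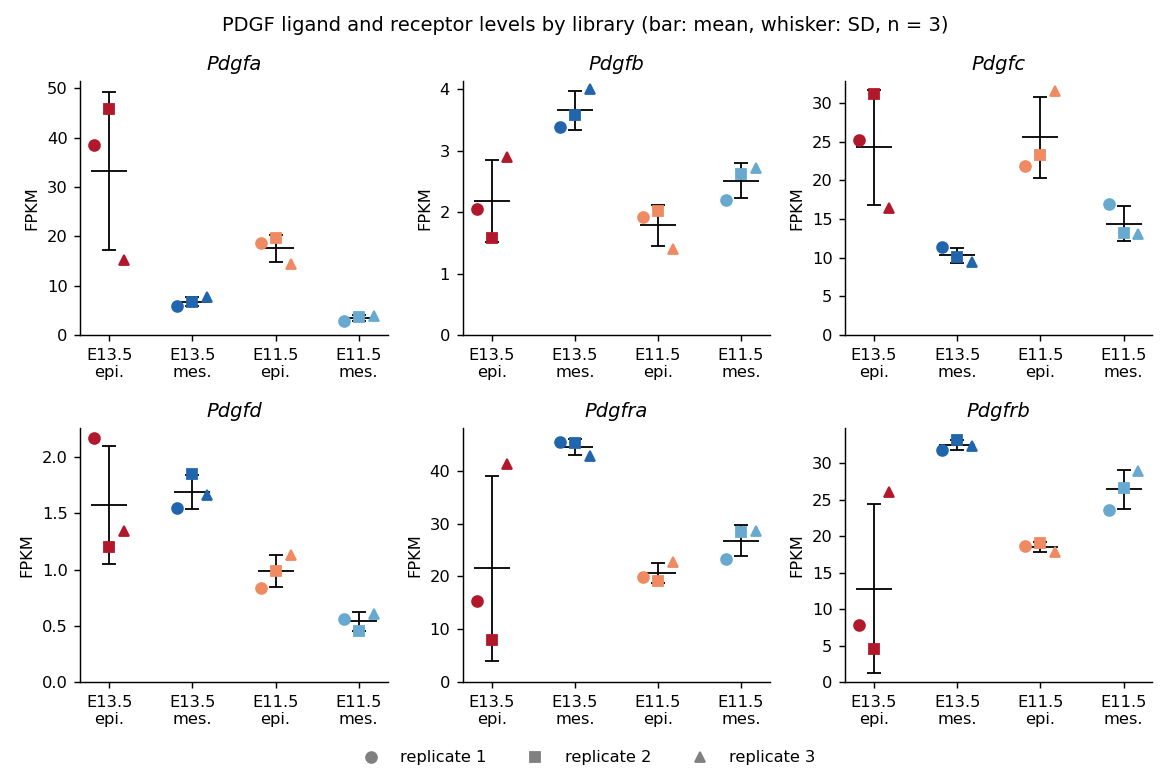
FPKM of the 6 genes in each of the 12 libraries, by group, with 1 panel a gene. Symbols are libraries, horizontal bars are group means and whiskers are SD (n = 3). Pdgfa in E13.5 epithelium ranged from 15.2 to 45.9 FPKM against 5.84 to 7.80 FPKM in E13.5 mesenchyme, and replicate 3 of E13.5 epithelium lay near the mesenchyme level for Pdgfra (41.2 FPKM) and Pdgfrb (26.1 FPKM).

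The order of the 4 group means was the same on FPKM and on CPM normalized by the trimmed mean of M values (TMM) for all 24 pairs of gene and group. Ranked among all genes above 0, Pdgfra in E13.5 mesenchyme stood at percentile 97 and Pdgfrb at percentile 95.5, while Pdgfa in E13.5 epithelium stood at percentile 95.7 and Pdgfc at percentile 93.8. Pdgfd stood between percentile 49.8 and 59.8 in all groups.

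The upstream sequences of 3 members are shown because these genes carry the opposite tissue directions, Pdgfa and Pdgfc toward epithelium and Pdgfra toward mesenchyme. Each is the 250 bases before a transcription start in RefSeq (GRCm38.p6), written 5′ to 3′ on the strand of the gene, and capitals mark GC boxes, which are GGGCGG or its reverse complement CCGCCC. Of the 6 members, 4 had a promoter that was looked up, and the start of Pdgfa shown is 1 of 2.
Pdgfa, chr5:138994945-138995194, minus strand: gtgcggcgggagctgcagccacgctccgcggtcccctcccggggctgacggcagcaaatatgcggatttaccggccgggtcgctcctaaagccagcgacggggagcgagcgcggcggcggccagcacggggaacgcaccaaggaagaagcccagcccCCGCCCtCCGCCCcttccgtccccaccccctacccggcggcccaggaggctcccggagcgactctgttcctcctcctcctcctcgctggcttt
Pdgfc, chr3:81036166-81036415, plus strand: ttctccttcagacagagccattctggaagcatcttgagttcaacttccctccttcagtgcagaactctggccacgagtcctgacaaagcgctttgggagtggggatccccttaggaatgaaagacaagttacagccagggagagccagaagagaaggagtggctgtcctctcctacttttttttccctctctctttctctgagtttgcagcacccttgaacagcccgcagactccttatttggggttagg
Pdgfra, chr5:75152001-75152250, plus strand: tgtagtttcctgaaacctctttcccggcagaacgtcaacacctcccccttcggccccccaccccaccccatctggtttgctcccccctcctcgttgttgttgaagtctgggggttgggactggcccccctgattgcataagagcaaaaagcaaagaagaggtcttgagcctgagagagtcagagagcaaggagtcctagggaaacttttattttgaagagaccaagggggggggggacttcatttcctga

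The Pdgfa window shown held 2 GC boxes, and a GC box on either strand was present in 32.7% of the 32851 promoters searched. Those of Pdgfc and Pdgfra held none. The window of the other Pdgfa start held 1 GC box, at a GC content of 66.4%, and that of Pdgfd none. TATAAA or TTTATA was found once in the Pdgfd window and in no other of the members' windows, while 12.4% of all promoters held one. GC content was 72.4% for the Pdgfa window shown, 50.8% for Pdgfc and 54.4% for Pdgfra, with a median of 52.4% over all promoters. A match describes the letters of the window only.

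Summed over the 4 genes, ligand transcripts exceeded the receptor transcripts in epithelium and not in mesenchyme, with 1 exception. The ratio of summed ligand to summed receptor FPKM was 2.93, 6.33 and 0.532 in E13.5 epithelium, against 0.288, 0.283 and 0.305 in E13.5 mesenchyme. At E11.5 it was 1.13, 1.20 and 1.20 in epithelium and 0.481, 0.363 and 0.352 in mesenchyme. The exception was replicate 3 of E13.5 epithelium, which still lay above every mesenchyme library. The summed ligand FPKM overlapped between the mesenchyme libraries of the stages, with 22.2 to 22.9 at E13.5 and 19.99 to 22.6 at E11.5, whereas the summed receptor FPKM was 75.2 to 78.5 at E13.5 and 47.0 to 57.5 at E11.5.

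**Figure D2:**
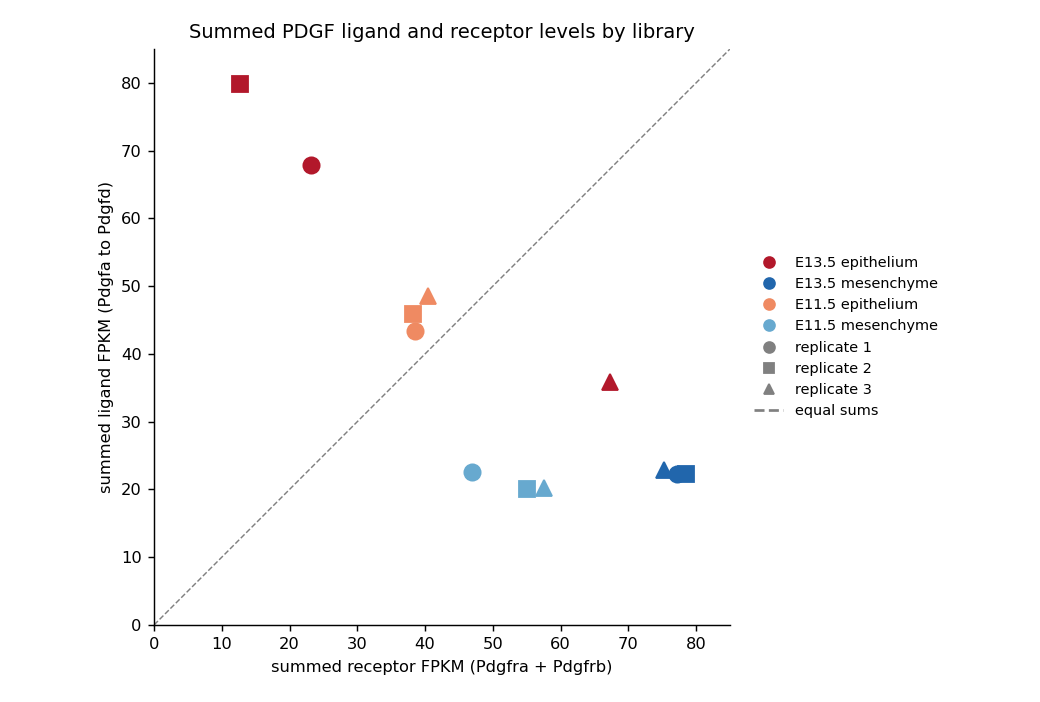
Summed FPKM of the 4 ligands (y axis) against summed FPKM of the 2 receptors (x axis), with 1 point a library, colours for groups and symbols for replicates. The dashed line marks equal sums. The mesenchyme libraries lie below the line (ratios 0.283 to 0.481), and of the epithelium libraries only replicate 3 of E13.5 (ratio 0.532) does.

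The make-up of the ligands differed as well. Pdgfa was 56.7%, 57.4% and 42.4% of the summed ligand FPKM in E13.5 epithelium, against 26.3%, 30.3% and 34.0% in E13.5 mesenchyme. At E11.5 it was 43.1%, 42.7% and 29.7% in epithelium, against 12.7%, 18.8% and 18.8% in mesenchyme. Pdgfc was the larger share in every library except replicates 1 and 2 of E13.5 epithelium, at 37.1% and 39.1%, and it reached 75.1% in replicate 1 of E11.5 mesenchyme. The Pdgfa to Pdgfra ratio in FPKM was 2.50, 5.72 and 0.368 in E13.5 epithelium and 0.129 to 0.182 in E13.5 mesenchyme. The same ratio was 0.636 to 1.02 in E11.5 epithelium, against 0.123 to 0.133 in E11.5 mesenchyme.

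Epithelium was then compared with mesenchyme at E13.5, the bud stage, with edgeR's quasi-likelihood test over all genes and Benjamini-Hochberg adjustment. Pdgfa and Pdgfc were higher in epithelium and no member was lower at an adjusted p under 0.05. Of all genes tested, 1.62% passed as higher and 0.204% as lower, and 1.59% and 0.17% also differed by a log2 fold change of at least 1, as both members did. Pdgfa averaged 33.2 ± 16.0 FPKM in epithelium and 6.78 ± 0.98 FPKM in mesenchyme (SD, n = 3), a 4.95-fold difference (log2 2.31, SE 0.38, edgeR adjusted p = 0.043). Pdgfc averaged 24.3 ± 7.46 FPKM in epithelium and 10.3 ± 1.02 FPKM in mesenchyme, a 2.38-fold difference (log2 1.25, SE 0.23, edgeR adjusted p = 0.0491). Both calls are close to the threshold. They were lost when replicate 1 or 2 of the epithelium or any mesenchyme library was left out (adjusted p 0.0704 to 0.209 for Pdgfa and 0.0866 to 0.22 for Pdgfc).

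The receptors and Pdgfb had negative values at E13.5 that did not pass with all 6 libraries. The log2 fold change was -1.02 for Pdgfra (SE 0.53, edgeR adjusted p = 0.285), -1.31 for Pdgfrb (SE 0.59, adjusted p = 0.228) and -0.72 for Pdgfb (SE 0.25, adjusted p = 0.154). The libraries of the 2 tissues did not overlap for these 3 genes, nor for Pdgfa and Pdgfc, and 30.8% of all genes tested were without overlap. Pdgfd was at -0.08 (adjusted p = 0.882) with overlapping libraries.

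With replicate 3 of the E13.5 epithelium left out, 5 of 6 members passed at E13.5, 2 as higher and 3 as lower, where 12.5% of all genes passed as higher and 15.7% as lower. Pdgfrb then stood at log2 -2.39 (edgeR adjusted p = 0.00039), Pdgfra at -1.93 (adjusted p = 0.00181) and Pdgfb at -1.003 (adjusted p = 0.00568). Pdgfa was at 2.65 (adjusted p = 6.58e-05) and Pdgfc at 1.46 (adjusted p = 0.000533). In the numbered libraries alone the same 5 members passed, with Pdgfrb at -2.39 (adjusted p = 0.00193) and Pdgfa at 2.56 (adjusted p = 0.000489), where 35.7% of all genes passed. Between the 2 unnumbered libraries, 1 a tissue and hence with no test, the log2 ratios of FPKM + 0.5 had the same directions but were smaller, 1.31 for Pdgfa, 0.50 for Pdgfc, -0.14 for Pdgfra and -0.28 for Pdgfrb.

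At E11.5, the stage at which the dental epithelium is being specified, Pdgfa showed the clearest tissue difference of the family. It averaged 17.6 ± 2.75 FPKM in epithelium and 3.47 ± 0.53 FPKM in mesenchyme (SD, n = 3), a 5.25-fold difference (log2 2.39, SE 0.15, edgeR adjusted p = 0.00012). The call held with each library left out. Pdgfc was 1.83-fold higher in epithelium (log2 0.87, SE 0.19, adjusted p = 0.0393), and Pdgfrb was 1.38-fold lower (log2 -0.46, SE 0.08, adjusted p = 0.0131). These 2 results were lost in 4 of 6 leave-outs each, without epithelium replicate 1 or 2 or mesenchyme replicate 2 or 3 (adjusted p 0.0563 to 0.167 for Pdgfc and 0.0601 to 0.0854 for Pdgfrb). Of all genes tested at E11.5, 4.75% passed as higher and 1.63% as lower, and 3.67% and 0.493% also had a log2 fold change of at least 1, of the members only Pdgfa.

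The other 3 members did not pass at E11.5. Pdgfd was at log2 0.92 (SE 0.23, edgeR adjusted p = 0.0617), Pdgfra at -0.33 (SE 0.10, adjusted p = 0.11) and Pdgfb at -0.44 (SE 0.17, adjusted p = 0.201). All 6 members were without overlap between the tissues at E11.5, where 26.7% of all genes were. With the bracketed library number as a block, Pdgfd passed (edgeR adjusted p = 0.047), though whether that number marks pairs cannot be told. That was 1 of 3 among 11 processing alternatives in which Pdgfd passed. It passed in 0 of 6 leave-outs (edgeR adjusted p 0.0581 to 0.222). In the numbered libraries alone Pdgfra passed at -0.46 (adjusted p = 9.04e-05) and Pdgfd at 0.89 (adjusted p = 0.0245), where 32.9% of all genes passed.

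**Figure D3:**
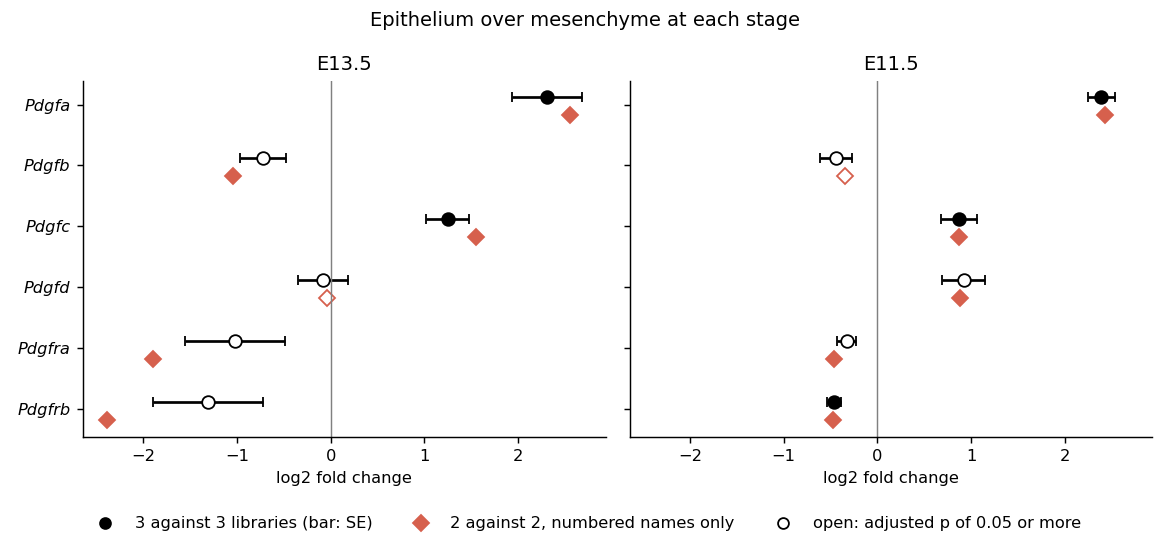
Log2 fold change of epithelium over mesenchyme for the 6 members at E13.5 (left) and E11.5 (right). Circles are the fits of 3 against 3 libraries with SE bars, diamonds those of the 2 numbered libraries a group, and open symbols have an adjusted p of 0.05 or more. Pdgfa lies near 2.31 and 2.39 at the 2 stages, and Pdgfrb at -1.31 with all E13.5 libraries against -2.39 in the numbered ones.

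By median log2 fold change, mesenchyme and endothelial markers were lower in epithelium at both stages, the direction of the receptors. The median of the mural cell markers was -1.115 at E13.5 but 0.32 at E11.5. The summed FPKM of 15 mesenchyme markers was 545, 357 and 1319 in E13.5 epithelium, against 1618 to 2014 in E13.5 mesenchyme. At E11.5 the sum was 390 to 546 in epithelium and 567 to 730 in mesenchyme. Among the epithelium libraries of E13.5, replicate 3 was highest and replicate 2 lowest, in the same order as for Pdgfra and Pdgfrb. With all libraries, 0 of 15 mesenchyme markers and 0 of 10 endothelial markers passed as lower in E13.5 epithelium, where 0.204% of all genes did. With replicate 3 left out, 14 of 15 and 10 of 10 passed as lower, where 15.7% of all genes did. At E11.5, 4 of 15 and 4 of 10 passed as lower in epithelium, where 1.63% of all genes did. The 10 endothelial markers summed to 33.1, 16.1 and 79.8 FPKM in E13.5 epithelium and 99.6 to 115 FPKM in E13.5 mesenchyme, and to 47.9 to 51.6 FPKM in E11.5 epithelium against 65.2 to 76.5 FPKM in E11.5 mesenchyme. The 10 mural cell markers, a cell type known for Pdgfrb, summed to 79.2, 71.4 and 130 FPKM in E13.5 epithelium and 128 to 189 FPKM in E13.5 mesenchyme. At E11.5 the mural sums of the tissues overlapped, with 60.7 to 73.2 FPKM in epithelium and 50.1 to 68.7 FPKM in mesenchyme. Of 9 mural markers tested, 0 passed as lower at E13.5 or E11.5, where 0.204% and 1.63% of all genes did. With replicate 3 left out, 5 of 9 passed as lower at E13.5, where 15.7% of all genes did. At most 1 of the mural markers, and none of the mesenchyme and endothelial markers, was at 0 in a library. The part of these cells in the receptor and Pdgfb values was not tested.

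Between the stages, the mesenchyme showed a change in every member. Of the 6 members, 5 were higher and 1 lower in E13.5 mesenchyme than in E11.5 mesenchyme, where 22% of all genes passed as higher and 17% as lower. With a log2 fold change of at least 1 as well, 13.1% were higher and 3.09% lower, of the members only Pdgfd. Pdgfd rose most, 3.05-fold (log2 1.61, SE 0.21, edgeR adjusted p = 0.000557), from a low level. Pdgfa rose 1.92-fold (log2 0.94, SE 0.14, adjusted p = 0.00115) and Pdgfra 1.63-fold (log2 0.71, SE 0.09, adjusted p = 0.000373). Pdgfra averaged 44.5 ± 1.45 FPKM in E13.5 mesenchyme and 26.8 ± 3.004 FPKM in E11.5 mesenchyme. Pdgfb rose 1.43-fold (log2 0.51, SE 0.13, adjusted p = 0.0115), Pdgfrb rose 1.21-fold (log2 0.27, SE 0.08, adjusted p = 0.0266), and Pdgfc fell 1.43-fold (log2 -0.52, SE 0.15, adjusted p = 0.0235).

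All 6 members were without overlap between the mesenchyme libraries of the stages, where 50.9% of all genes were. The numbered libraries alone gave the same 6 directions, each past the threshold, with 46.7% of all genes passing. The Pdgfc call was lost without E11.5 mesenchyme replicate 1 or E13.5 mesenchyme replicate 2 or 3 (highest adjusted p 0.083), and the Pdgfrb call without E11.5 mesenchyme replicate 1 or 2 or E13.5 mesenchyme replicate 2 (highest 0.104). Pdgfb and Pdgfra passed in all 6 leave-outs. With the spread estimated over all 12 libraries, Pdgfb (edgeR adjusted p = 0.0817), Pdgfc (0.134), Pdgfra (0.213) and Pdgfrb (0.667) did not pass.

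Epithelial markers were also higher in E13.5 mesenchyme, beside the rise of Pdgfa. Of all genes tested in this comparison, 22% rose and 17% fell. Of 15 epithelial markers 11 rose, and their summed FPKM was 95.7 to 141 in E13.5 mesenchyme against 33.0 to 36.7 in E11.5 mesenchyme. Of 9 mural cell markers tested 8 rose and 1 fell. The rise was led by Cspg4 (log2 2.58), a pericyte proteoglycan, and Tbx18 (2.30), a mural cell transcription factor. Acta2 (2.15), a smooth muscle actin, and Kcnj8 (1.96), a potassium channel, followed. The marker that fell was Notch3 (log2 -0.37, edgeR adjusted p = 0.0068), at 17.0 FPKM in E13.5 mesenchyme and 21.6 FPKM in E11.5 mesenchyme. Of 10 endothelial markers 7 rose, Tek, the angiopoietin receptor, by 1.03. The part of these cells in the changes of Pdgfa, Pdgfb and Pdgfrb was not tested.

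In the epithelium, no member passed between E13.5 and E11.5 with edgeR over all 6 libraries, where 5.47% of all genes passed as higher and 3.01% as lower, 4.27% and 1.29% with a log2 change of 1 or more. The value furthest from 0 was that of Pdgfa, at log2 0.91 (SE 0.37, adjusted p = 0.17), followed by Pdgfd, at 0.66 (SE 0.30, adjusted p = 0.212). Pdgfd was the 1 member without overlap between the stages, where 32.7% of all genes were. Pdgfb was at 0.29 (adjusted p = 0.575) and Pdgfc at -0.08 (adjusted p = 0.875). Pdgfrb was at -0.52 (adjusted p = 0.626) and Pdgfra at 0.08 (adjusted p = 0.949). After removal of replicate 3 of E13.5 epithelium, Pdgfa rose (log2 1.25, adjusted p = 0.00428) and Pdgfrb fell (log2 -1.59, adjusted p = 0.00561), while Pdgfra was at -0.83 (adjusted p = 0.0786). In that fit 10% of all genes passed as higher and 7.21% as lower. The numbered libraries gave 1.13 for Pdgfa (adjusted p = 0.00108) and -1.62 for Pdgfrb (adjusted p = 0.00429), with 38.8% of all genes passing.

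**Figure D4:**
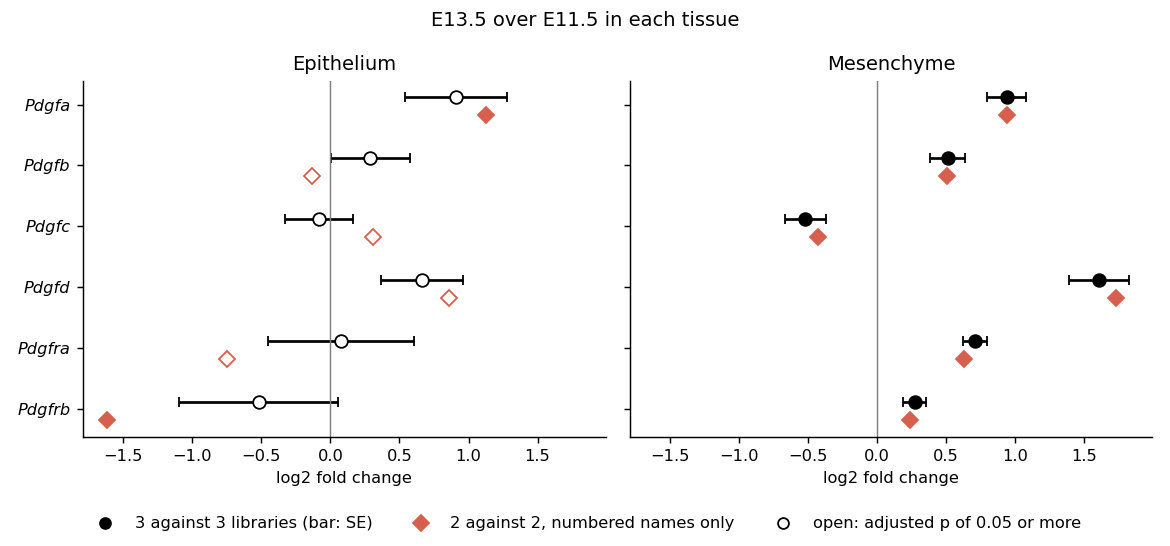
Log2 fold change of E13.5 over E11.5 for the 6 members in epithelium (left) and mesenchyme (right), drawn as in the tissue plot. In mesenchyme both fits have the same direction for all 6 members, and in epithelium Pdgfra lies at 0.08 with all libraries against -0.75 in the numbered ones.

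Whether the tissue difference itself differed between the stages was tested as an interaction over the 12 libraries. No member passed (edgeR adjusted p 0.24 to 0.966), and 0.204% of all genes did. The change of the log2 difference was -0.98 for Pdgfd (SE 0.36, adjusted p = 0.24), -0.83 for Pdgfrb (SE 0.64, adjusted p = 0.56) and -0.67 for Pdgfra (SE 0.59, adjusted p = 0.617). When replicate 3 of the E13.5 epithelium was left out, the receptors passed, at -1.90 for Pdgfrb (adjusted p = 0.000712) and -1.57 for Pdgfra (adjusted p = 0.00458), with 13.4% of all genes passing. In the numbered libraries alone Pdgfrb (-1.89, adjusted p = 0.00164), Pdgfra (-1.41, adjusted p = 0.0147), Pdgfb (-0.67, adjusted p = 0.0414) and Pdgfc (0.71, adjusted p = 0.00941) passed, with 30.4% of all genes. The receptor interaction thus depended on 1 library. Pdgfa did not pass in any of these fits.

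The proteins that act on PDGF ligands outside the cell were examined as a list of 13, of which 12 were tested. Between the tissues St14 stood out. It encodes matriptase, a membrane serine protease known to activate PDGF-D. It averaged 6.94 ± 4.14 FPKM in E13.5 epithelium and 0.56 ± 0.09 FPKM in E13.5 mesenchyme (log2 3.63, edgeR adjusted p = 0.0347). At E11.5 it averaged 4.17 ± 0.22 FPKM in epithelium and 0.41 ± 0.06 FPKM in mesenchyme (log2 3.39, adjusted p = 2.13e-05). Pcsk5, a proprotein convertase, was lower in E11.5 epithelium (log2 -0.82, adjusted p = 0.00471). The other 10 did not pass at E11.5, where 4.75% of all genes were higher and 1.63% lower. The other 11 did not pass at E13.5, where 1.62% of all genes were higher and 0.204% lower. The list's median log2 fold change was -0.77 at E13.5 and -0.02 at E11.5, against -0.01 and 0.01 over all genes. The St14 call at E13.5 was lost without epithelium replicate 1 or any mesenchyme library (highest adjusted p 0.207). Without replicate 3 of the E13.5 epithelium, 1 of the 12 was higher and 9 were lower, where 12.5% of all genes were higher and 15.7% lower.

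In mesenchyme, 10 of the 12 rose between the stages and none fell, where 22% of all genes rose and 17% fell, and the list's median log2 fold change was 0.80 against 0.01 over all genes. Markers of skeletal cells rose in the same comparison, 7 of 8 osteoblast markers (summed FPKM 160 to 298 in E13.5 mesenchyme and 8.79 to 13.51 in E11.5 mesenchyme) and 7 of 8 chondrocyte markers (215 to 274 in E13.5 mesenchyme and 82.7 to 94.9 in E11.5 mesenchyme). Of 15 mesenchyme markers 10 rose and 2 fell. The part of these cells in the list's values was not tested. Pcsk6, a proprotein convertase of the furin family, averaged 10.05 ± 1.60 FPKM in E13.5 mesenchyme and 1.47 ± 0.24 FPKM in E11.5 mesenchyme (log2 2.75, edgeR adjusted p = 1.12e-05). Sparc, a matrix glycoprotein that binds PDGF-B, averaged 234 ± 37.7 FPKM in E13.5 mesenchyme and 55.3 ± 8.49 FPKM in E11.5 mesenchyme (log2 2.05, adjusted p = 1.71e-05). Nrp1, a co-receptor for VEGF that also binds PDGF ligands, rose by 1.84 (adjusted p = 4.22e-06), and A2m, a protease inhibitor that carries growth factors, by 1.75 from a level under 1 FPKM (adjusted p = 0.00309). The plasminogen activators Plat (log2 0.75, adjusted p = 0.00375) and Plau (log2 0.82, adjusted p = 0.00753) rose with them. Plat can cut the CUB domain from PDGF-C, and Plau that from PDGF-D. The exceptions were St14 (log2 0.43, adjusted p = 0.15) and Pcsk7 (log2 -0.06, adjusted p = 0.68), another convertase. In epithelium Pcsk6 (log2 2.27, adjusted p = 0.00331) and Sparc (log2 1.07, adjusted p = 0.0295) were the 2 of 12 that rose. Of all genes, 5.47% rose and 3.01% fell in epithelium. The Sparc call was kept only without E13.5 epithelium replicate 2 (in the other leave-outs the log2 value fell under 1 or the adjusted p, at most 0.124, missed the threshold).

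**Figure D5:**
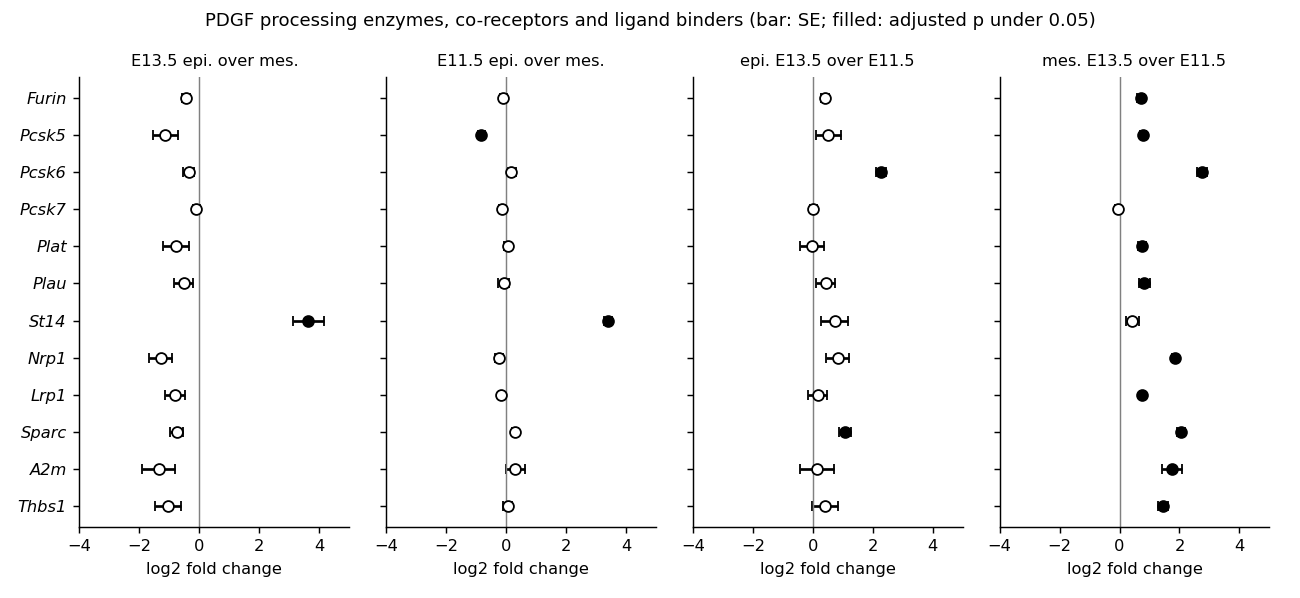
Log2 fold change with SE for 12 genes that process or bind PDGF ligands, in the 4 comparisons from left to right. Filled symbols have an adjusted p under 0.05. St14 is the gene past the threshold at E13.5 between the tissues (3.63), and 10 of 12 are past it in mesenchyme between the stages.

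The signalling chain downstream of the receptors was examined as relay genes and as brakes. Of 22 relay genes, among them PI3-kinase subunits, Plcg1, Src-family kinases and Ras-pathway adaptors, none passed between the tissues at E13.5 or E11.5 with edgeR, where 1.62% and 4.75% of all genes were higher and 0.204% and 1.63% lower. With E13.5 epithelium replicate 3 removed, 3 were higher and 2 lower at E13.5, against 12.5% and 15.7% of all genes. In mesenchyme 6 rose and 2 fell between the stages, where 22% of all genes rose and 17% fell. Fyn, a Src-family kinase, rose by 1.02 (edgeR adjusted p = 3.89e-05). Of the relay genes 1 rose in epithelium, where 5.47% of all genes did. Of 12 brakes of receptor signalling, such as phosphatases, Cbl ubiquitin ligases and Sprouty proteins, none passed between the tissues at E13.5. At E11.5, 1 of the 12 was higher and 2 were lower, where 4.75% and 1.63% of all genes were. With E13.5 epithelium replicate 3 removed, none was higher and 3 were lower at E13.5, against 12.5% and 15.7% of all genes. Between the stages 3 of the 12 rose and 3 fell in mesenchyme, near the 22% and 17% of all genes. In epithelium 2 rose, where 5.47% of all genes did, and Spry1, an inhibitor of Ras signalling, rose by 1.01 (adjusted p = 0.00995). The Spry1 call, which asks for a log2 change of 1 or more, was kept only without E13.5 epithelium replicate 3 (in the other leave-outs the log2 value fell under 1 or the adjusted p, at most 0.0724, missed the threshold).

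Of 10 SRF and immediate early genes tested at E11.5, 5 were higher in the epithelium with none lower, where 4.75% of all genes were higher and 1.63% lower. Among the 5 were the transcription factors Egr2 (log2 2.05, edgeR adjusted p = 0.00186), Junb (1.17, adjusted p = 0.00115), Fos (1.17, adjusted p = 0.00104) and Fosb (1.16, adjusted p = 0.042). Egr2 is also a known gene of Schwann cells and hindbrain, and of 8 Schwann and glial markers 2 were higher in E11.5 epithelium. Of 8 neuron markers 5 were higher, with a summed FPKM of 173, 175 and 48.7 in E11.5 epithelium and 18.8 to 24.3 in E11.5 mesenchyme. Of 8 macrophage markers 4 were higher, with 18.9 to 24.2 FPKM in E11.5 epithelium and 8.04 to 13.8 FPKM in E11.5 mesenchyme. The part of these cells was not tested. Fosb was no longer called when any of the 6 libraries was left out, by a log2 value under 1 or by its adjusted p (0.016 to 0.131). None of the 10 passed between the tissues at E13.5. There the summed FPKM of the list was 109, 112 and 683 in epithelium and 356, 111 and 112 in mesenchyme, and the high library of each tissue was the unnumbered one. Immediate early genes also respond to tissue handling, and the part of handling was not tested. Myc rose between the stages in epithelium (log2 1.05, adjusted p = 0.0343) and in mesenchyme (log2 1.02, adjusted p = 0.000752), where 5.47% and 22% of all genes rose. The epithelium call was kept only without E13.5 epithelium replicate 3 (adjusted p 0.012 to 0.135 over the leave-outs). The rise in mesenchyme passed in all 6 leave-outs (adjusted p 0.00111 to 0.00583), although its log2 value fell under 1 without E11.5 mesenchyme replicate 1 or E13.5 mesenchyme replicate 2. Without replicate 3 of E13.5 epithelium, 2 of the 10 were higher and 6 lower in E13.5 than in E11.5 epithelium, where 10% of all genes were higher and 7.21% lower.

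Among 14 relatives of the family, the VEGF ligands and receptors and the class III receptor kinases with their ligands, none passed between the tissues at E13.5 and 1 was higher and 1 lower at E11.5, where 4.75% and 1.63% of all genes were. Without replicate 3 of the E13.5 epithelium 1 was higher and 9 were lower at E13.5, where 12.5% and 15.7% of all genes were. In mesenchyme 5 rose and 1 fell between the stages, where 22% of all genes rose and 17% fell. Kitl, the ligand of the Kit receptor, rose by 2.27 (adjusted p = 4.01e-05), Csf1 by 1.99 (adjusted p = 1.24e-05) and Csf1r, its receptor on macrophages, by 1.97 (edgeR adjusted p = 0.000364). All 8 macrophage markers, Csf1r among them, rose in mesenchyme, and the part of macrophages in its value was not tested. In epithelium Kitl rose by 1.33 (adjusted p = 0.0278), a call lost without replicate 1 or 2 of either epithelium group (highest adjusted p 0.127).

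The genes whose level followed each member most closely over the 12 libraries were sought among 11372 genes with a mean of at least 1 FPKM, by Pearson correlation of log2(FPKM + 0.5). The libraries fall into groups, and the coefficients describe that pattern only. Pdgfa was followed by Hspb8 (r = 0.996), a small heat shock protein, Jag2 (r = 0.995), a Notch ligand, and Fxyd3 (r = 0.994), a regulator of the sodium pump. Jag2 averaged 18.4 ± 10.03 FPKM in E13.5 epithelium and 3.02 ± 0.38 FPKM in E13.5 mesenchyme. Pdgfc was followed by Rab11fip1 (r = 0.98), Ormdl1 (r = 0.966) and Wnt9b (r = 0.961), a Wnt ligand. Wnt9b averaged 9.24 ± 5.28 FPKM in E13.5 epithelium and 0.44 ± 0.22 FPKM in E13.5 mesenchyme.

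Pdgfra was followed by Zcchc24 (r = 0.993), Slit3 (r = 0.984), a guidance ligand, and Olfml1 (r = 0.984). Slit3 averaged 4.46 ± 3.72 FPKM in E13.5 epithelium and 10.7 ± 1.53 FPKM in E13.5 mesenchyme. Pdgfrb was followed by Rftn2 (r = 0.993), Fam171a1 (r = 0.993) and Efnb3 (r = 0.99), an ephrin. The minor ligands were followed less closely in the case of Pdgfd, by Gpm6b (r = 0.95), Atp1b1 (r = 0.947) and Mgp (r = 0.946), and for Pdgfb by Arhgef25 (r = 0.98), Shank3 (r = 0.972) and Slc18b1 (r = 0.972). On the CPM scale all 18 stayed within the first 7 except Fxyd3, at rank 38. Within the family, r was 0.926 between Pdgfra and Pdgfrb, 0.734 between Pdgfa and Pdgfc and -0.962 between Pdgfb and Pdgfc, values that share their libraries.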

How the data were processed

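RNA-seq libraries of 4 groups, 3 a group, were analysed. Reads were filtered with Cutadapt 1.9. HISAT2 2.0.4, StringTie 1.3.4d, edgeR and the build mm10 are listed in the processing notes of the submitters. The deposited table gives an FPKM value and an estimated count per gene and library. The FPKM values deposited by the authors are scaled by transcript length and library. The deposited estimated counts are whole and exceed the read pairs of a library about 3 times, so they understate counting error, and the spread between libraries set the precision. They were tested with edgeR 4.0.16 in R 4.3.3 (filterByExpr, TMM, glmQLFit, glmQLFTest). Adjustment was by Benjamini-Hochberg over all genes tested. A gene passed at an adjusted p under 0.05 and was called where the absolute log2 fold change was also at least 1. The SE is the log2 fold change over the root of F. Each tissue or stage comparison used its own 6 libraries, the interaction all 12. Alternatives were RLE factors, DESeq2 1.42.0, no filter, limma 3.58.1 on log2(FPKM + 0.5) and with 0.1 or 1, a shared fit, counts divided by 3, blocks and leave-outs. The steps were tested on simulated data. Totals per library were 70134554 to 79349382.

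Members and lists were chosen with earlier results of these data known. Up to 4 called genes of a list were named per comparison, those with the largest absolute log2 fold change, Plat, Plau, Pcsk5 and Pcsk7 being named after their values were seen and most marker lists being given as counts, and 3 correlated genes per member. Titles and bracketed library names carry different replicate numbers. Deviations from the group mean were correlated between libraries of the same number. By title numbers the correlations were 0.293 to 0.54 in mesenchyme between the stages, where both numberings match the same libraries. They were of mixed or negative sign in the other comparisons. By bracketed numbers they were 0.49 to 0.719 between the tissues at E11.5. These matches set the unnumbered libraries, which stood apart in each group, against each other. The values therefore cannot tell pairs from the split between unnumbered and numbered libraries.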

Additional observations from a re-analysis of the deposited data

Results flagged for a closer look

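Fabp7, a glial and neural progenitor marker examined as a sign of other cells, was the gene named here whose tissue difference differed between the stages in the interaction test, by -4.04 on the log2 scale (edgeR adjusted p = 0.0316). It averaged 3.64 ± 1.51 FPKM in E13.5 epithelium and 5.87 ± 2.17 FPKM in E13.5 mesenchyme, against 24.7 ± 11.04 FPKM in E11.5 epithelium and 2.38 ± 0.91 FPKM in E11.5 mesenchyme. The result passed in 4 of 12 leave-outs, those without E11.5 epithelium replicate 3, E11.5 mesenchyme replicate 1 or E13.5 epithelium replicate 2 or 3, and not in the other 8 (highest adjusted p 0.0963). No PDGF member passed the test with all libraries.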

How the results depend on the processing

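Counts of called genes moved far more than the direction of the members. At E13.5 between the tissues 362 genes were called, but 1625 with DESeq2 (60.9% higher, against 90.3%), 1159 with the shared fit (67.5% higher), 3666 in the numbered libraries, and 0 with no filter, with limma at a pseudocount of 0.5 or 1 and with the replicate block or the library number block (by edgeR the unadjusted p was under 0.05 for 4865). Leave-outs gave 0 to 3431, the highest without E13.5 epithelium replicate 3. At E11.5 the count was 835, with 438 and 277 by limma at 0.5 and 1, 542 with the replicate block, 1710 in the numbered libraries and 497 to 1324 in leave-outs. In epithelium between the stages it was 1138, with 2079 by DESeq2, 577 with no filter, 608 and 365 by limma at 0.5 and 1, 1850 with the shared fit, 54 with the replicate block and 54 with the library number block, 3132 in the numbered libraries and 52 to 2258 in leave-outs. In mesenchyme it was 3272, with 1619 and 1093 by limma and 2801 to 3538 in leave-outs. For the interaction the count is of genes with an adjusted p under 0.05, whatever their fold. It was 45, with 940 by DESeq2, 26 with no filter, 112, 74 and 111 by limma at 0.5, 0.1 and 1, 87 with counts divided by 3, 19 with the replicate block, 28 with the library number block, 113 with the library set as a covariate, 6766 in the numbered libraries and 16 to 3096 in leave-outs. The causes were not tested.

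Of 570 member values under an alternative, 478 kept direction and side of the threshold, 47 lost and 25 gained the threshold, and 20 turned direction. None that turned had passed. Pdgfra in epithelium between the stages was -0.24, -0.25 and -0.23 by limma, -0.26 with the replicate block and -0.26 with the library number block, -0.22 with the library set as a covariate, -0.75 in the numbered libraries and -0.83 to 0.42 in leave-outs. Pdgfc there was 0.31 in the numbered libraries and -0.36 to 0.13 in leave-outs, and Pdgfb -0.13 in the numbered libraries. Pdgfd at E13.5 was -0.37 to 0.0795 in leave-outs. The Pdgfa interaction was 0.16 in the numbered libraries and -0.38 to 0.28 in leave-outs. With the replicate block, Pdgfc (adjusted p = 0.122) and Pdgfrb (0.112) did not pass at E11.5, nor Pdgfa (0.115) and Pdgfc (0.0931) at E13.5. The replicate block changed no other member's call. Apart from leave-outs and the numbered libraries there were 11 alternatives. At E13.5 Pdgfa passed in 5 of these 11 and Pdgfc in 4. At E11.5 Pdgfc passed in 8 of 11 and Pdgfrb in 9. The SE of the members' log2 fold changes was 0.23 to 0.59 at E13.5 between the tissues, against 0.08 to 0.21 in mesenchyme between the stages, so the smallest difference that could pass was not the same in each comparison.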
